A study of Mus musculus with 8 samples.

Results

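The enzymes that remove marks from histones, DNA and RNA, together with those that write DNA methylation, were examined in alveolar macrophages, the macrophages of the lung's air spaces, after deletion of Tfam. Members were taken by gene symbol: the Kdm histone demethylases, the Hdac and Sirt deacetylases, the AlkB homologues (Alkbh), the Tet and Dnmt genes, and the hydroxylases Jmjd6, Riox1, Riox2 and Hif1an, leaving out Kdm3a and Kdm5d. This gave 49 of the 12367 genes in the table, and no expression value entered the rule. Kdm4d, Tet1 and Hdac11 fit the rule but are not among the listed genes, so they could not be analysed. All 12367 listed genes lay above a low read level in at least 3 libraries. Genes with few reads therefore appear to have been left out before deposit, which would limit the members and markers that could be found. For a gene that is not listed, no level is known here. The 4 control libraries (WT) came from Tfam-fl/fl mice, which carry floxed alleles of the mitochondrial transcription factor Tfam and no Cre. The 4 deleted libraries (KO) came from CD11c-Cre Tfam-fl/fl mice, in which CD11c drives the Cre, so that any cell type that has expressed CD11c can be deleted. All mice were untreated and 3 weeks old, and a library was a pool of CD45+ F4/80+ CD11c+ cells sorted from 3 to 5 male and/or female mice. There was no group with the Cre and unfloxed Tfam, and effects of the Cre and of Tfam loss cannot be told apart. The comparison asks how the mRNA levels of these enzymes differ between macrophages with and without Tfam.

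These enzymes take their cosubstrates from metabolism. The JmjC-domain demethylases, the TET enzymes, the AlkB homologues and the JmjC hydroxylases are oxygenases that use iron, oxygen and 2-oxoglutarate, an intermediate of the TCA cycle, and succinate and fumarate inhibit many of them. Sirtuins consume NAD, the LSD-type demethylases Kdm1a and Kdm1b use FAD, DNA methyltransferases use S-adenosylmethionine, and the other deacetylases hold a zinc ion and need no such cosubstrate. The data are mRNA levels; metabolites, enzyme activity and chromatin marks were not measured in them.

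Tfam was 26.1 to 35.2 in WT and 3.52 to 5.08 in KO, on the authors' normalised read scale used throughout (log2 fold change -2.55 with SE 0.12, adjusted p = 1.02e-06, limma). The libraries held 20243772 to 30263201 reads in the listed genes, and a value of 0.1 to 0.152 stands for 3 reads, counting error only. Both replicate-4 libraries stood apart on the second principal component, which held 12.8% of the variance. All 15 alveolar macrophage markers were in the table, 4 of them called higher and 6 lower. Among them Itgax, the CD11c gene, was 1047 to 1162 in WT and 1776 to 2213 in KO, Siglecf 454 to 545 in WT and 174 to 224 in KO and Fabp1 158 to 196 in WT and 9.23 to 14.9 in KO; their summed level, 35679.6 to 38285 in WT and 36812 to 42265 in KO, is mostly Chil3 (22376 to 25449.7 in WT and 24490.1 to 30293 in KO, not called). Markers of interstitial macrophages and monocytes (10 of 12 in the table, without Ly6c2 and Folr2) summed to 48.3 to 77.8 in WT and 86.1 to 232 in KO, and 7 of the 10 rose. Markers of endothelium and fibroblasts (8 of 9, without Dcn) summed to 98.1 to 243 in WT and 273 to 381 in KO, where 1 of the 8 was called, Vwf (66.3 to 128 in WT and 221 to 319 in KO). Dendritic cell markers (9 of 9) summed to 86.9 to 136 in WT and 99.5 to 343 in KO, with 2 called higher, Clec9a and H2-Ab1 (67.2 to 109.8 in WT and 78.7 to 310.3 in KO), the latter the largest part of the sum. Neutrophil markers (7 of 8, without Ly6g) summed to 94.7 to 143 in WT and 112 to 153 in KO, and of 6 tested 1 rose (Cxcr2, 9.05 to 16.4 in WT and 62.6 to 98.6 in KO) and 3 fell (among them Csf3r, 50.6 to 58.8 in WT and 13.96 to 23.1 in KO). Lung epithelial markers (7 of 10, without Foxj1, Krt8 and Krt18) summed to 57.4 to 142 in WT and 86.5 to 128 in KO, with 1 called higher. WT replicate 3 had the highest WT sums of endothelial and epithelial markers, with Pecam1 at 25.6 against 6.38 to 7.58, Cdh5 at 32.2 against 5.81 to 7.47 and Sftpc at 75.9 against 15.6 to 21.9 in the other WT libraries. KO replicate 1 had the highest H2-Ab1, at 310.3 against 78.7 to 213 in the other KO libraries. It was also highest for the interstitial macrophage and monocyte marker C1qb, at 47.0 against 11.8 to 25.6. Of B cell markers 2 of 6 were listed, of eosinophil, basophil and mast cell markers 1 of 8, and of T and NK cell markers 0 of 9. The part of such cells in the results below was not tested. In a sorted pool, fewer cells that express a gene and less of its RNA per cell cannot be told apart.

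Of the 49 members, 7 rose and 13 fell in KO, and 29 were not called (limma, Benjamini-Hochberg adjusted p under 0.05 over all 12163 tested genes). The 20 called members are 40.8%, against 38.7% of all tested genes, so the share of members called was close to the background. By direction, 18.7% of all tested genes were higher and 20.0% lower. These shares are the background for the counts of classes and lists below. Changes were small: the called members lay between 33.2% below and 79.2% above WT, and 0 of 49 differed by 1 log2 unit or more, against 5.86% of all genes. The median log2 fold change was -0.07 over the members and -0.01 over all genes. The median absolute change was 0.18 over the members and 0.21 over all genes, so a typical gene also changed little. In 15 members the 4 KO libraries did not overlap the 4 WT libraries, 7 above and 8 below. Over all genes this share was 37.7%, with 18.1% above and 19.6% below.

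**Figure D1:**
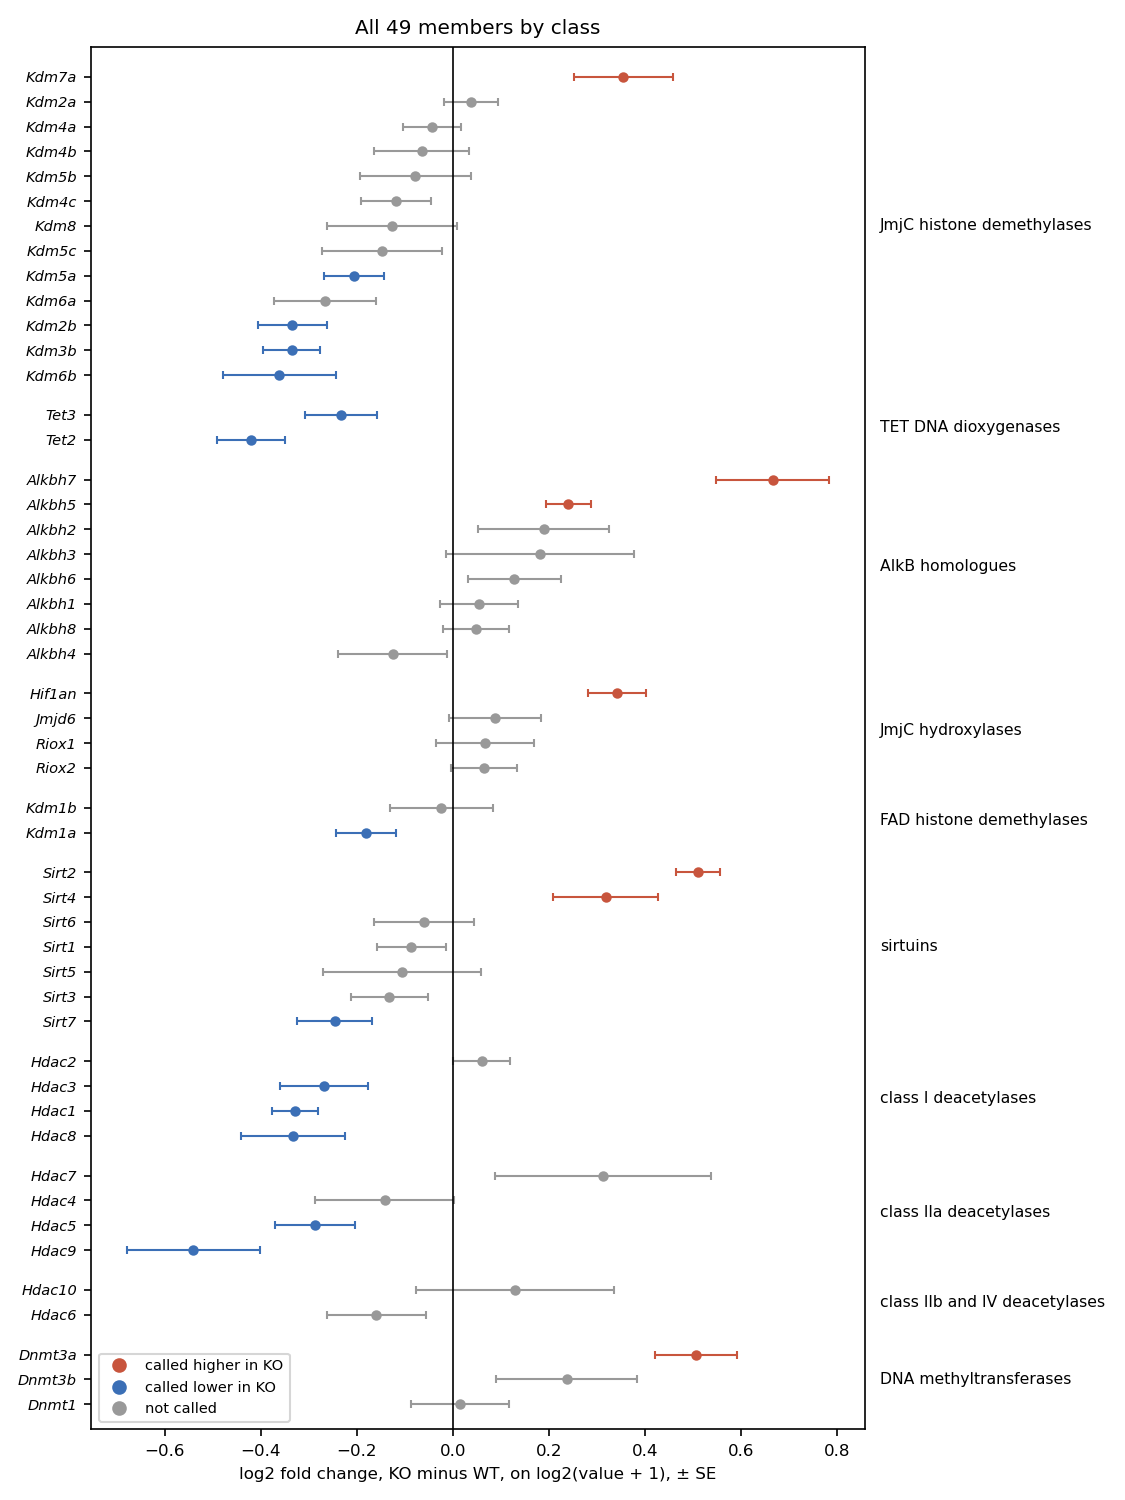
Log2 fold change of each of the 49 members (KO minus WT, on log2(value + 1), horizontal axis) with its standard error, grouped by class. Points to the right of 0 are higher in KO, and colour marks the 7 members called higher, the 13 called lower and the 29 not called.

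Of the 20 calls, 10 held under each of the 20 alternatives that tested them, leaving out each library in turn included. These were Sirt2, Dnmt3a, Alkbh7, Alkbh5 and Hif1an, all higher, and Hdac1, Hdac9, Tet2, Kdm3b and Kdm2b, all lower. The other 10 calls were each lost on leaving out at least 1 library. The count of 13 lower members became 5 when WT replicate 1 was left out, 7 for WT replicate 2, 8 for KO replicate 2 and 6 for KO replicate 3. The 7 higher members became 5 to 7. With both replicate-4 libraries left out, 6 members were higher and 9 lower.

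**Figure D2:**
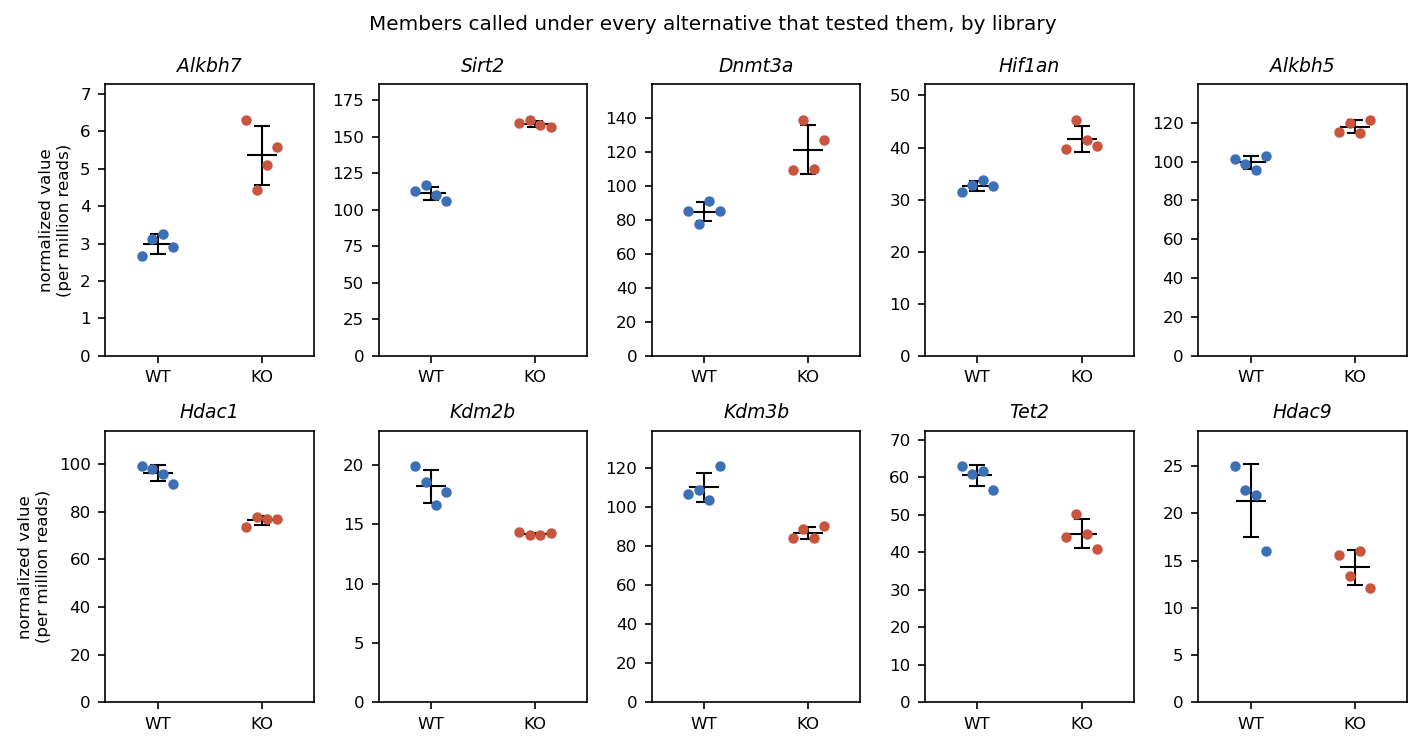
Normalised value in each library (vertical axis) of the 10 members called under every alternative that tested them, with the mean and SD over 4 libraries. Among these members the groups overlap only in Hdac9, where WT replicate 4 (15.98) lies just below KO replicate 3 (16.03).

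Among the 13 JmjC histone demethylases, 1 rose, 4 fell and 8 were not called (median log2 fold change -0.13). Kdm3b, a demethylase of histone H3 related to Kdm3a, was 107, 109, 104 and 121 in WT and 84.1, 88.7, 84.4 and 90.1 in KO in replicates 1 to 4. Every KO library was below every WT library (110.0 ± 7.51 against 86.8 ± 3.02, mean ± SD, n = 4; log2 fold change -0.34 with SE 0.06, adjusted p = 0.00155, limma). Kdm2b, which brings a variant polycomb complex to unmethylated CpG islands, was 19.9, 18.6, 16.6 and 17.7 in WT and 14.3, 14.1, 14.1 and 14.2 in KO. Here too the groups did not overlap, and the KO libraries had an SD of 0.124 (log2 fold change -0.33 with SE 0.07, adjusted p = 0.00484, limma). Its exons overlap those of Rnf34 on the other strand, which was 30.5 ± 2.72 and 27.5 ± 2.38 in WT and KO and was not called. The strand setting of the counting is not given in the sources used here. Kdm2b also shares 615 bases at 100% identity with a processed pseudogene that is not a listed gene.

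Kdm7a, which removes repressive methyl groups from histone H3, was the JmjC demethylase that rose. It was 75.1, 59.9, 59.9 and 79.0 in WT and 80.8, 87.5, 84.0 and 97.1 in KO, so the highest WT library lay just under the lowest KO library (log2 fold change 0.35 with SE 0.10, adjusted p = 0.0212, limma). The call was lost without WT replicate 2, WT replicate 3 or KO replicate 4 (adjusted p 0.05004 to 0.0616). Kdm5a, a demethylase of the methyl mark of active promoters, was 107, 102, 95.5 and 90.3 in WT and 83.8, 90.3, 83.4 and 83.2 in KO. WT replicate 4 and KO replicate 2 met, and the call (log2 fold change -0.21 with SE 0.06, adjusted p = 0.0257, limma) was lost without WT replicate 1 or 2 or KO replicate 1 or 3 (0.0608 to 0.0735) and with Xist as a covariate (0.0551). Its exons overlap those of the antisense gene Ccdc77, which was 7.19 ± 1.36 and 5.57 ± 0.714 and was not called.

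Kdm6b, an inducible demethylase of the polycomb mark known from macrophage activation, was 48.3, 35.0, 38.4 and 50.1 in WT and 33.6, 30.1, 36.4 and 31.7 in KO. WT replicates 1 and 4 were high and WT replicate 2 lay within the KO range. This call (log2 fold change -0.36 with SE 0.12, adjusted p = 0.0351, limma) was lost without WT replicate 1 or 4 or KO replicate 1, 2 or 4 (0.0646 to 0.0949). It was also lost without both replicate-4 libraries (0.118), with library weights (0.131), with median centring (0.0517) and with Xist as a covariate (0.0682).

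Kdm6a and Kdm5c lie on the X chromosome and are known to escape X inactivation. Kdm6a, a demethylase of the polycomb mark, was 51.4, 56.8, 46.8 and 66.9 in WT and 48.8, 48.4, 41.6 and 43.8 in KO, and was not called (log2 fold change -0.27 with SE 0.11, adjusted p = 0.0740, limma). It was called lower with the replicate number as a block (0.0315), with Xist as a covariate (0.0237), with library weights (0.0434) and without WT replicate 3 (0.0271). Kdm5c, a demethylase of the mark that Kdm5a removes, was 96.7, 107, 98.3 and 148 in WT and 98.4, 110.1, 92.1 and 99.3 in KO (adjusted p = 0.390, limma). WT replicate 4 was the highest library for both genes. Xist, the RNA of the inactive X chromosome, was 66.3, 183, 64.6 and 147 in WT and 204, 148, 140.1 and 73.7 in KO, so the pools differed in it within both groups and WT replicate 4 was not the highest.

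**Figure D3:**
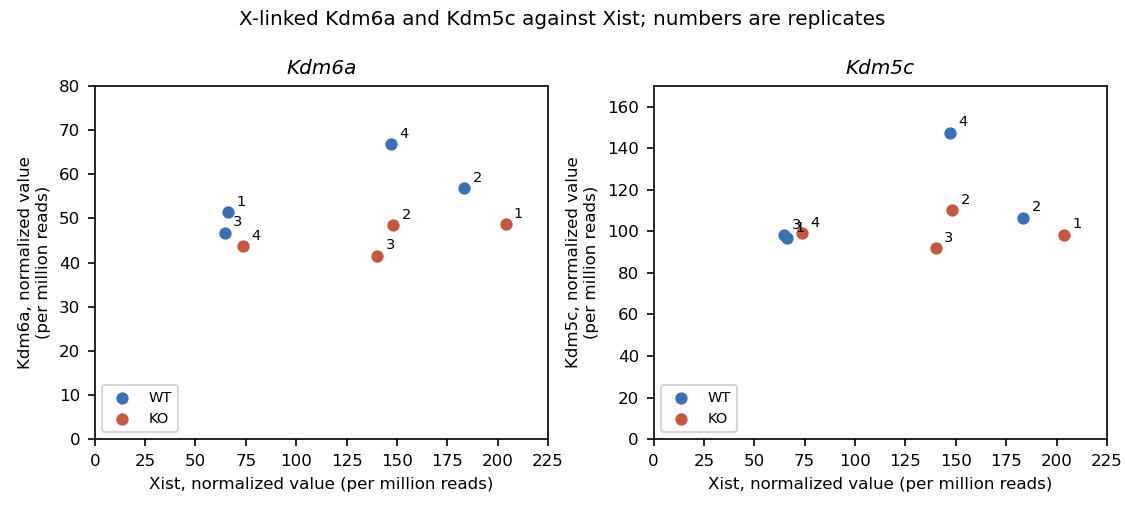
Normalised values of Kdm6a (left) and Kdm5c (right), vertical axes, against Xist, horizontal axes, in the 8 libraries. Numbers are replicates. WT replicate 4 has the highest Kdm6a (66.9) and Kdm5c (148) at an Xist value of 147.

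The other JmjC demethylases differed less. Kdm2a, Kdm4a, Kdm4b, Kdm4c, Kdm5b and Kdm8 had log2 fold changes between -0.13 (Kdm8) and 0.04 (Kdm2a), with adjusted p from 0.237 to 0.647 by limma, and the groups overlapped in each. Kdm4a was 62.1 ± 3.09 and 60.2 ± 3.32 in WT and KO, and Kdm2a, a CpG island binder like Kdm2b, was 92.1 ± 5.33 and 94.5 ± 3.45. Kdm8 was low, at 1.95 to 2.72 in WT and 1.78 to 2.67 in KO.

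Of the FAD-dependent pair, Kdm1a (LSD1), the demethylase of the CoREST complex, was 48.6, 46.8, 48.6 and 50.8 in WT and 46.5, 42.6, 39.2 and 43.2 in KO. The groups came close without overlapping (log2 fold change -0.18 with SE 0.06, adjusted p = 0.0440, limma). This call was lost on leaving out any single library but KO replicate 1 (0.0618 to 0.119). It was also lost without both replicate-4 libraries (0.0956), with quantile normalisation (0.0702), median centring (0.0708), no variance trend (0.0580) and Xist as a covariate (0.0728). Its relative Kdm1b was 30.3 ± 3.68 and 29.8 ± 3.71 and was not called (adjusted p = 0.880, limma).

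Both measured TET genes, whose enzymes oxidise 5-methylcytosine and so begin DNA demethylation, fell. The stretch before the RefSeq start of Tet2 (GRCm38.p6, chr3:133544391-133544640, minus strand) is shown because Tet2 had the largest called decrease among the oxygenase genes.

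Tet2: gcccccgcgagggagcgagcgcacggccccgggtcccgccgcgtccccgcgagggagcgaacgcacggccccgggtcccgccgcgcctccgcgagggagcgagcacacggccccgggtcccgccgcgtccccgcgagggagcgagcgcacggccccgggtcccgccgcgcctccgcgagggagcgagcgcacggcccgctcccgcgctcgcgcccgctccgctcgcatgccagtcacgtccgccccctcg

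It holds 51 CpG dinucleotides in 250 bases, where the median over 11763 promoters of tested genes was 15, and an observed over expected CpG ratio of 1.19 against a median of 0.725. Tet2 was 62.9, 60.9, 61.7 and 56.5 in WT and 44.0, 50.4, 44.8 and 41.0 in KO. All KO libraries were below all WT libraries (60.5 ± 2.79 against 45.0 ± 3.92; log2 fold change -0.42 with SE 0.07, adjusted p = 0.00121, limma). Tet3 was 66.6, 64.0, 61.9 and 74.3 in WT and 58.1, 58.5, 50.5 and 59.1 in KO, also without overlap (log2 fold change -0.23 with SE 0.07, adjusted p = 0.0328, limma). The Tet3 call was lost without WT replicate 1, 2 or 4 or KO replicate 1 or 3 (0.0519 to 0.0869), with median centring (0.0550) and with Xist as a covariate (0.0529). Per kilobase of annotated exon, the level of Tet2 was 3.59 in WT and 2.67 in KO, and that of Tet3 4.00 and 3.39.

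The AlkB homologues include enzymes that repair alkylated DNA or demethylate RNA. Of 8 members, 2 rose, 0 fell and 6 were not called (median log2 fold change 0.15). The stretch before the start of Alkbh7 (GRCm38.p6, chr17:56997089-56997338, plus strand) is shown because Alkbh7 had the largest change of any member; capitals mark an E-box, CACGTG.

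Alkbh7: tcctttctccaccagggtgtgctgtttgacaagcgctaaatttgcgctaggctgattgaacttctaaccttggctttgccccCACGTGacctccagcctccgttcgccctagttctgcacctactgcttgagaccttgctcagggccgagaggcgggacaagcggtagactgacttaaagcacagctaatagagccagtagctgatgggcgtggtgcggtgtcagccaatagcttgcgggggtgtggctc

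Alkbh7, a mitochondrial member of the family, was 2.66, 3.12, 3.26 and 2.92 in WT and 6.30, 4.43, 5.11 and 5.58 in KO. The groups were well apart at a low level (2.99 ± 0.260 against 5.36 ± 0.788; log2 fold change 0.67 with SE 0.12, adjusted p = 0.00167, limma). Alkbh5, which removes N6-methyladenosine from mRNA, was 101, 98.8, 95.4 and 103 in WT and 115, 120.0, 115 and 121 in KO. The increase was small, 18.3%, yet every KO library was above every WT library (log2 fold change 0.24 with SE 0.05, adjusted p = 0.00298, limma). Alkbh1, Alkbh2, Alkbh3, Alkbh4, Alkbh6 and Alkbh8 had log2 fold changes from -0.13 (Alkbh4) to 0.19 (Alkbh2) with adjusted p of 0.308 to 0.641 by limma. Alkbh3, a DNA and RNA repair enzyme, was 19.3, 15.2, 17.3 and 10.05 in WT and 19.5, 18.2, 19.4 and 12.8 in KO, lowest in the replicate-4 library of both groups.

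Promoters were searched for short motifs of 5 kinds. RefSeq promoters (GRCm38.p6) matched 41 of the 49 members by symbol, with 57 entries, and the 250 bases before each start were read on both strands. In 45 of the 57 entries the start lay in an annotated transcript of the gene. The E-box CACGTG was in 5 of 57 member promoters (8.77%) and in 8.41% of all promoters of tested genes. The members were Alkbh7 (168 bases before the start), Dnmt3a (80), Kdm4c, Kdm6a and Sirt1. Dnmt3a has several entries, and only the one at chr12:3891494-3891743 held the E-box. The E2F-type letters TTTGGCGC, TTTCGCGC or TTTCCCGC were in 2 of 57 (3.51%, Dnmt1 and Sirt4) against 2.97%. The NRF1-type letters GCATGCGC, whose matches on opposite strands can overlap, were in 2 (3.51%, Sirt6 and Sirt7) against 4.36%. The ATF4-type letters TGATGCAA and the CRE TGACGTCA were in 0 of 57, against 0.561% and 2.57%. These shares of members lay near those of all promoters, and a match of letters is not a site.

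Of the 4 JmjC hydroxylases, 1 rose and 3 were not called. Hif1an (FIH), the asparagine hydroxylase that blocks coactivator binding to hypoxia-inducible factors, was 31.5, 32.9, 33.7 and 32.7 in WT and 39.7, 45.3, 41.5 and 40.3 in KO. The groups were separate (32.7 ± 0.922 against 41.7 ± 2.52; log2 fold change 0.34 with SE 0.06, adjusted p = 0.00160, limma). Riox2 was 36.4 ± 2.19 and 38.1 ± 2.39, Riox1 9.12 ± 1.20 and 9.56 ± 0.706, and Jmjd6, a lysyl hydroxylase of splicing factors, 21.1 ± 1.81 and 22.6 ± 2.69, with overlap of the groups in each. Over all 27 genes for 2-oxoglutarate oxygenases, 4 rose, 6 fell and 17 were not called (median log2 fold change -0.04). The 6 became 3 without WT replicate 1 or KO replicate 1.

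The sirtuins share NAD and differ in where they work: Sirt1, Sirt6 and Sirt7 in the nucleus, Sirt2 mainly in the cytosol, and Sirt3, Sirt4 and Sirt5 in mitochondria. Of 7 members, 2 rose, 1 fell and 4 were not called. Sirt2, a tubulin and histone deacetylase, was 113, 117, 110.1 and 106 in WT and 159, 162, 158 and 157 in KO. The libraries of each group lay close together and the groups far apart (111 ± 4.52 against 159 ± 2.06; log2 fold change 0.51 with SE 0.05, adjusted p = 3.29e-05, limma). Exons of Sirt2 overlap those of Nfkbib on the other strand, which was 18.3 ± 2.30 and 22.2 ± 1.97 and was not called. Per kilobase of annotated exon, the Sirt2 level was 22.1 in WT and 31.6 in KO, above the other 6 sirtuins in both groups. Sirt7 came next at 11.5 and 9.69.

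Sirt4, a mitochondrial sirtuin, was 2.86, 3.64, 3.79 and 3.48 in WT and 4.38, 4.94, 4.09 and 4.71 in KO. The groups did not overlap, at a low level (log2 fold change 0.32 with SE 0.11, adjusted p = 0.0434, limma). This call was lost on leaving out any library but WT replicate 3 (0.0533 to 0.112). It was also lost without both replicate-4 libraries (0.106), with quantile normalisation (0.0777), library weights (0.0540) and Xist as a covariate (0.0818). Sirt7, a nucleolar deacetylase, was 58.6, 61.4, 54.1 and 63.0 in WT and 56.0, 48.98, 44.3 and 50.3 in KO. KO replicate 1 lay within the WT range (log2 fold change -0.25 with SE 0.08, adjusted p = 0.0326, limma), and the call was lost without WT replicate 1, 2 or 4 or KO replicate 2 or 3 (0.0629 to 0.0869) and without both replicate-4 libraries (0.0837). Exons of Sirt7 overlap those of Mafg on the same strand, which rose from 55.3 ± 7.02 to 101 ± 6.84, and reads in the shared stretch can be assigned to either gene.

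The other mitochondrial sirtuins were not called. Sirt3, the main mitochondrial deacetylase, was 11.1 ± 0.643 and 10.05 ± 0.680 (log2 fold change -0.13 with SE 0.08, adjusted p = 0.226, limma). Its exons overlap those of Ric8a and Psmd13 on the other strand. Sirt5, a desuccinylase, was 9.07 ± 2.29 and 8.19 ± 0.812, and parts of its transcripts are near-identical to those of 5 other genes, 4 of them listed. The nuclear Sirt1 was 37.5 ± 1.01 and 35.3 ± 3.34, and Sirt6 5.66 ± 0.468 and 5.40 ± 0.644, neither called.

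Of the 10 zinc-dependent deacetylases, 0 rose, 5 fell and 5 were not called, with a median log2 fold change of -0.21 against -0.01 for all genes. Over all tested genes, 18.7% were higher and 20.0% lower. The 5 lower deacetylases became 2 without WT replicate 1 or KO replicate 3, and 3 without WT replicate 2, KO replicate 2 or KO replicate 4. Only Hdac1 and Hdac9 kept their call under every alternative that tested them. In class I, Hdac1, Hdac2 and Hdac3 are catalytic subunits of nuclear corepressor complexes. Hdac1 was 99.0, 98.0, 95.8 and 91.6 in WT and 73.5, 77.8, 76.9 and 77.0 in KO. The gap between the groups was wider than the range within either (96.1 ± 3.28 against 76.3 ± 1.92; log2 fold change -0.33 with SE 0.05, adjusted p = 0.000507, limma). Hdac2, which pairs with Hdac1 in the same complexes, was 50.2, 55.5, 53.0 and 55.9 in WT and 51.7, 57.7, 56.8 and 57.6 in KO. It was not called (log2 fold change 0.06 with SE 0.06, adjusted p = 0.464, limma), and the difference between the changes of Hdac1 and Hdac2 was not tested. Processed pseudogenes resemble Hdac1, the closest over 1444 bases at 99.4% identity, and are not listed genes, so reads of Hdac1 may be split with them.

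Hdac3, the enzyme of the NCoR and SMRT complexes, was 44.6, 40.4, 43.3 and 33.9 in WT and 36.3, 31.6, 34.4 and 31.2 in KO, and WT replicate 4 lay within the KO range. This call (log2 fold change -0.27 with SE 0.09, adjusted p = 0.0431, limma) was lost without WT replicate 1, 2 or 3 or KO replicate 2, 3 or 4 (0.0703 to 0.114). Quantile normalisation (0.0581), median centring (0.0549), no variance trend (0.0563) and Xist as a covariate (0.0873) ended it too. Hdac8, an X-linked enzyme that deacetylates cohesin, was 7.44, 7.47, 6.27 and 6.15 in WT and 5.75, 5.32, 5.41 and 4.39 in KO, without overlap (log2 fold change -0.33 with SE 0.11, adjusted p = 0.0357, limma). Its call was lost without WT replicate 1 or 2 or KO replicate 2, 3 or 4 (0.0620 to 0.1000) and without both replicate-4 libraries (0.0502).

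Class IIa deacetylases shuttle between nucleus and cytosol and act mostly through partners such as MEF2 and NCoR. Hdac9 was 24.95, 22.5, 22.0 and 15.98 in WT and 15.6, 13.4, 16.03 and 12.1 in KO. It had the largest fall of any member, by 33.2%, although WT replicate 4 reached the KO range (log2 fold change -0.54 with SE 0.14, adjusted p = 0.0123, limma; 0.00126 to 0.0368 on leaving out each library). Hdac5 was 45.9, 43.7, 41.2 and 46.3 in WT and 36.4, 36.1, 31.3 and 41.1 in KO. The lowest WT and the highest KO library lay side by side without crossing (log2 fold change -0.29 with SE 0.08, adjusted p = 0.0214, limma), and the call was lost without WT replicate 1 or KO replicate 3 (0.0514 to 0.0572). Hdac4 was 72.3, 65.5, 72.1 and 53.5 in WT and 62.5, 62.7, 70.4 and 44.3 in KO and was not called (adjusted p = 0.476, limma), with the replicate-4 library lowest in both groups.

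Hdac7 was near the lower limit of the table, at 1.40, 1.11, 3.37 and 1.12 in WT and 2.18, 2.23, 2.11 and 2.50 in KO. Its exons overlap those of Slc48a1 on the other strand, and the part of Slc48a1 reads in these low values was not tested. WT replicate 3 was above all KO libraries, and Hdac7 was not called (adjusted p = 0.309, limma). Without WT replicate 3 it was called higher, at a log2 fold change of 0.56 (adjusted p = 0.00915). This is the library with the highest WT levels of the endothelial and epithelial markers Pecam1 (25.6 against 6.38 to 7.58), Cdh5 (32.2 against 5.81 to 7.47) and Sftpc (75.9 against 15.6 to 21.9), and their part in the Hdac7 value was not tested. In class IIb, the X-linked tubulin deacetylase Hdac6 was 17.8, 17.9, 18.2 and 15.1 in WT and 17.1, 14.4, 17.0 and 13.1 in KO (adjusted p = 0.254, limma). Hdac10, which acts on polyamines, was 0.927 to 2.35 in WT and 0.991 to 2.02 in KO (adjusted p = 0.664, limma). Both overlapped between the groups.

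Of the 3 DNA methyltransferases, 1 rose and 2 were not called. Dnmt3a, which sets new methylation, was 85.0, 77.5, 91.1 and 85.3 in WT and 109, 139, 109.9 and 127 in KO. All KO libraries were above all WT libraries, with KO replicates 2 and 4 highest (84.8 ± 5.59 against 121 ± 14.3; log2 fold change 0.51 with SE 0.09, adjusted p = 0.00133, limma). Dnmt3b, the other enzyme of new methylation, was low, at 1.12 to 1.78 in WT and 1.63 to 2.54 in KO, and was not called (adjusted p = 0.237, limma). Dnmt1, which copies methylation at replication forks, was 104, 112, 116 and 87.8 in WT and 104, 121, 106 and 92.7 in KO. The groups overlapped, and the lowest library of each was replicate 4 (105 ± 12.5 against 106 ± 11.6; log2 fold change 0.01 with SE 0.10, adjusted p = 0.925, limma). Per kilobase of annotated exon, the levels in WT were 14.2 for Dnmt1, 5.09 for Dnmt3a and 0.310 for Dnmt3b, and in KO 14.4, 7.28 and 0.400. The order of Dnmt1 and Dnmt3a rests on the annotated exon length, 7377 and 16642 bases. Without that division Dnmt3a (121) was above Dnmt1 (106) in KO. Dnmt3a and Tet2, which write and oxidise the same DNA mark, thus had called changes of opposite sign.

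Uhrf1, the partner that brings Dnmt1 to hemimethylated DNA, was 31.3, 37.5, 43.4 and 24.7 in WT and 8.83, 9.23, 10.8 and 12.8 in KO (log2 fold change -1.61 with SE 0.17, adjusted p = 8.00e-05, limma). Mki67, a marker of dividing cells, was 168 to 272 in WT and 59.5 to 78.6 in KO, and all 38 genes of a cell cycle list fell (median log2 fold change -1.38). Uhrf1 and Mki67 were lower in every KO library while Dnmt1 overlapped between the groups; the difference between their changes was not tested. An E2F-type match, TTTCGCGC on the strand opposite to Dnmt1, lies 219 bases before 1 of its 3 RefSeq starts.

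**Figure D4:**
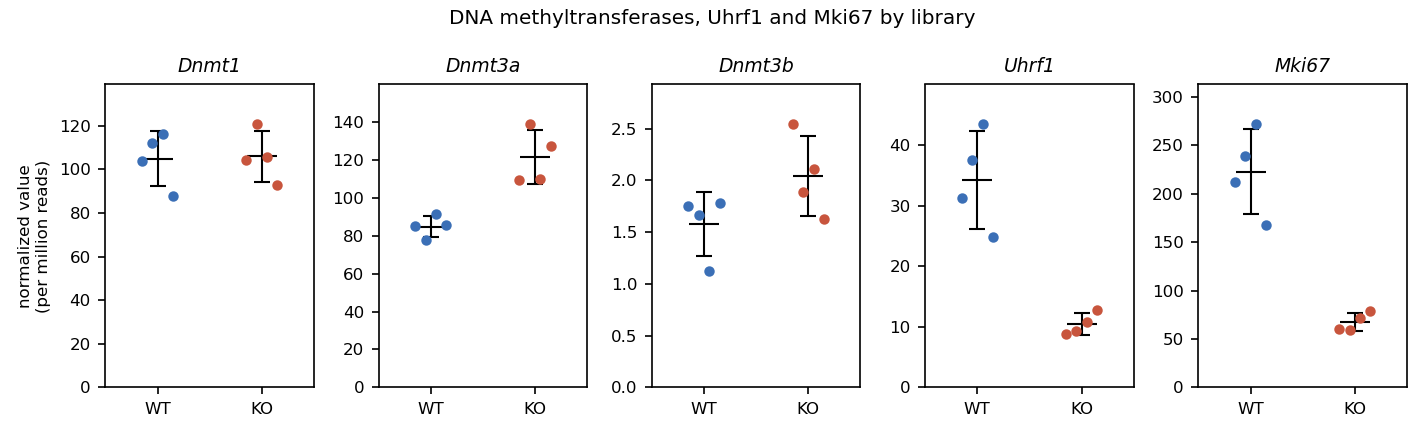
Normalised values by library of the 3 DNA methyltransferases, Uhrf1 and Mki67 (vertical axes), with mean and SD over 4 libraries. Dnmt1 overlaps between the groups, Dnmt3a is higher in all KO libraries, and Uhrf1 and Mki67 are lower in all KO libraries.

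Genes for the supply and the partners of these enzymes were taken from lists. Of 26 tested genes for enzymes of 2-oxoglutarate, succinate and 2-hydroxyglutarate, 7 rose and 4 fell (median log2 fold change 0.000298). Glud1, which makes 2-oxoglutarate from glutamate, fell from 581 ± 8.63 to 467 ± 12.0. The transaminase genes Got1 (18.0 ± 1.75 to 46.2 ± 6.59) and Bcat2 (31.9 ± 3.51 to 56.5 ± 4.36) and the isocitrate dehydrogenase subunit gene Idh3b (91.6 ± 6.10 to 121 ± 3.87) rose. Among 23 tested genes for other 2-oxoglutarate oxygenases, 9 rose and 5 fell (median 0.17). Here the collagen hydroxylase genes P3h3 (3.52 ± 0.286 to 6.06 ± 0.720) and Plod1 (107 ± 8.77 to 131 ± 5.23) and the demethylase gene Phf2 (66.7 ± 3.92 to 80.0 ± 4.76) rose, and the aspartyl hydroxylase gene Asph fell (196 ± 6.34 to 166 ± 5.96).

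Of 22 genes of NAD synthesis and use, 6 rose and 7 fell (median -0.11). Nampt, the rate-limiting enzyme of NAD salvage, rose from 234 ± 8.20 to 407 ± 46.7 (log2 fold change 0.79 with SE 0.08, adjusted p = 5.88e-05, limma), with no overlap of the groups. The NAD glycohydrolase gene Bst1 rose from 331 ± 12.9 to 549.5 ± 33.9. The mitochondrial transhydrogenase gene Nnt fell from 31.1 ± 1.93 to 22.2 ± 2.27, and Haao of NAD synthesis from tryptophan fell from 5.01 ± 1.05 to 1.77 ± 0.121. In the S-adenosylmethionine cycle 4 of 11 rose and 2 fell (median 0.16). Ahcyl1 rose from 95.9 ± 5.77 to 215 ± 41.0 and Ahcyl2 from 39.1 ± 2.86 to 65.3 ± 3.04, both relatives of the hydrolase that clears the product of methylation. Amd1, which draws S-adenosylmethionine into polyamine synthesis, rose from 135 ± 9.57 to 155 ± 2.08, and Mat2b, a regulatory subunit of its synthesis, fell from 83.2 ± 3.00 to 70.2 ± 3.05.

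Of 44 genes of the corepressor complexes that house Hdac1, Hdac2, Hdac3 and Kdm1a, 6 rose and 11 fell (median -0.10). These 17 called genes of 44 are a share close to the 38.7% called over all tested genes. The NuRD remodeller gene Chd4 fell from 404 ± 12.1 to 302 ± 15.4, the scaffold gene Sin3a from 73.7 ± 5.41 to 55.2 ± 3.55 and Trerf1 from 62.5 ± 8.09 to 26.8 ± 2.24. The NuRD subunit gene Mta1 rose from 26.7 ± 1.07 to 38.5 ± 1.5. Among 16 partners of DNA methylation 1 rose and 6 fell (median -0.16). Besides Uhrf1, the glycosylase gene Mbd4 fell from 16.4 ± 1.001 to 6.94 ± 0.808 and the replication clamp gene Pcna from 263 ± 29.8 to 195 ± 14.4, while Gadd45a rose from 4.30 ± 1.41 to 15.5 ± 5.85. Genes of the cell cycle list, which also holds Pcna, fell beside Uhrf1, and their part in these values was not tested.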

How the data were processed

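The authors' deposited table gives normalised signal values, 1 for each gene and library. Read from the values, they are whole reads (100% at a tolerance of 0.01) with 0.5 added, relative to a scaled library size. Per the submitters' processing notes, the build was GRCm38 and the tools included limma, RSEM 1.3.1, cutadapt 1.7.1 and CASAVA 1.8.2; strand setting and annotation release: not given in the sources used here.

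Groups and replicate numbers follow the titles. Genes at 1 or more in at least 4 libraries (204 left out; all 49 members passed) were tested as log2(value + 1), which understates changes of low genes, with limma 3.58.1 in R 4.3.3 (variance trend, two-sided, Benjamini-Hochberg adjustment over 12163 genes). Tested on simulated data for KO against WT with 12172 genes, it recovered 28% of changes of 0.25 log2 and 100% of those of 0.5, 1 and 2, and 16 of 180 calls were false. The simulation used a common dispersion and fewer changed genes than the data, which gave 4708 calls, so these shares need not hold here. The p-values measure the spread between pools of mice.

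Same-numbered libraries deviated together (correlations 0.363, 0.286, 0.394 and 0.431; other pairs -0.374 to 0.0917), so a blocked fit was run; the meaning of the number is not stated, and the pairing is read from the data.

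Members and lists were chosen with earlier results of these data known. Named by rule were called members, the 2 lowest p of each class and 4 genes per list by p; other genes with values were chosen after seeing them. Gene overlaps and lengths came from GENCODE M21, matched by gene ID. Exons of Kdm1b, Riox2, Jmjd6, Alkbh1 and Alkbh2, none of them called, also overlap those of a listed gene on the other strand. Lengths are of all annotated exons of a gene joined, so levels per kilobase depend on which isoforms are annotated. Alternatives were other filters, pseudocounts and scalings, no trend, library weights, the block and leaving out each library. No further pseudocount, leaving out both replicate-4 libraries, and Xist as a covariate were added after seeing the data.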

Additional observations from a re-analysis of the deposited data

Results flagged for a closer look

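In 98 groups of 4 libraries (49 members, WT and KO), 9 had a highest or lowest library that stood far from the other 3 by Dixon's test, which chance gives in about 1 of 20 groups. WT replicate 2 was high for Alkbh6 (11.1 against 9.18 to 9.41) and for Riox1 (10.9 against 8.30 to 8.68). WT replicate 1 was low for Alkbh1 (10.8 against 12.5 to 12.8). WT replicate 3 was high for Hdac7 (3.37 against 1.11 to 1.40), and WT replicate 4 low for Hdac6 (15.1 against 17.8 to 18.2). In KO, replicate 2 was high for Kdm5a (90.3 against 83.2 to 83.8), replicate 3 low for Tet3 (50.5 against 58.1 to 59.1), replicate 4 high for Sirt6 (6.36 against 5.01 to 5.18) and replicate 1 low for Hdac2 (51.7 against 56.8 to 57.7).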

How the results depend on the processing

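With the replicate number as a block (the pairing), 7 members were higher and 14 lower, the added call being Kdm6a, and no other member's call changed. Over all 12163 tested genes the block gave 2730 higher and 2952 lower, against 2279 and 2429 in the main fit, so the background rose too. On leaving out 1 library, the higher members numbered 5 to 7 and the lower 5 to 12. Among 2-oxoglutarate oxygenases these ranges were 3 to 4 higher and 3 to 7 lower, among sirtuins 1 to 2 and 0 to 1, among zinc-dependent deacetylases 0 to 1 and 2 to 5, and among DNA methyltransferases 1 and 0. Over all genes 1850 to 2252 were higher and 1947 to 2447 lower; fewer libraries enter each such fit. The sirtuins called higher were 1 with a minimum of 8 (which leaves out Sirt4), with quantile normalisation, with library weights, with both replicate-4 libraries left out and with Xist as a covariate; leaving out those libraries also gave 0 lower sirtuins. Changes of sign occurred only in members that were not called. On the log2 scale, with 1 library left out Kdm4b ranged from -0.119 to 0.00711, Kdm1b from -0.0918 to 0.0506, Sirt5 from -0.267 to 0.0017 and Dnmt1 from -0.0676 to 0.0765. With library weights Kdm4a was at 0.00393, Riox1 at -0.0237 and Dnmt1 at -0.0222. With both replicate-4 libraries left out Kdm4a was at 0.0243, Kdm4b at 0.0661 and Dnmt1 at -0.00589. The cause was not tested. The simulation changed few genes and made 180 calls, against 4708 in the data, so its adjusted threshold was stricter. Its 28% recovery at 0.25 log2 is therefore not that of the fit here, where Kdm1a was called at -0.18. Members that were not called may still differ by small amounts, which was not tested.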

Other observations

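Enzymes that add the marks were measured in the same comparison. Of 43 histone methyltransferase genes 7 rose and 12 fell (median log2 fold change -0.09), where 18.7% of all tested genes were higher and 20.0% lower. Ezh2, the catalytic subunit of polycomb repressive complex 2, was 39.0, 40.0, 41.2 and 33.6 in WT and 16.02, 15.3, 16.5 and 16.8 in KO (log2 fold change -1.20 with SE 0.08, adjusted p = 4.44e-06, limma). Every KO library was below every WT library. Nsd2 fell from 83.4 ± 5.84 to 55.2 ± 3.84 and Setd2 from 115 ± 2.01 to 89.6 ± 3.27, both methyltransferases of histone H3, while Setd3, an actin histidine methyltransferase, rose from 87.1 ± 2.02 to 111 ± 4.26. Of 20 genes for histone acetyltransferases 1 rose and 7 fell (median -0.13). Hat1, which acetylates new histone H4, fell from 80.1 ± 4.26 to 50.2 ± 3.48, and the coactivator genes Ncoa2 and Ncoa1 fell from 81.5 ± 5.06 to 49.7 ± 1.53 and from 138 ± 23.8 to 88.7 ± 7.59. The N-terminal acetyltransferase gene Naa40 fell from 57.0 ± 5.01 to 43.5 ± 1.42.

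Among 23 genes of RNA methylation 2 rose and 4 fell (median -0.08). The genes Mettl14 and Virma, for subunits of the N6-methyladenosine writer whose mark Alkbh5 removes, fell from 40.8 ± 2.20 to 30.0 ± 0.795 and from 104 ± 5.26 to 83.8 ± 5.85. The reader gene Igf2bp2 rose from 15.3 ± 3.46 to 24.6 ± 5.23 and the methyltransferase gene Mettl1 from 11.7 ± 1.93 to 16.2 ± 2.03, both with overlap between the groups.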
